A study of Mus musculus with 11 samples.

Results

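The genes described here are those of the natriuretic peptide system: the peptide genes *Nppa*, *Nppb* and *Nppc*, the receptor genes *Npr1*, *Npr2* and *Npr3*, and *Corin*, a protease gene. They are the genes of this system by name, a rule that uses no value, although the system was picked with earlier results of these data known. They make up 7 of the 55487 genes in the deposited tables, and 7 of 7 were among the 24177 genes with enough reads to test. RNA was measured in whole hearts of embryos at E14.5, from 5 *Pde2A*-/- and 6 *Pde2A*+/+ embryos of matings between *Pde2A*+/- parents. Both groups were of the line that the labels call B6; 129P2-Pde2A tm1Dgen, were not given any drug, and were collected without separation by sex. The knockout is constitutive, so *Pde2A* was missing in every tissue of the embryo and not in the heart alone. Each heart was 1 library. The deposited labels name each heart as a separate sample but give no litter or batch.

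Natriuretic peptides are hormones, and those of *Nppa* and *Nppb* are made mainly by heart muscle cells. Atrial natriuretic peptide (ANP, from *Nppa*) and brain natriuretic peptide (BNP, from *Nppb*) bind the receptor encoded by *Npr1*, and C-type natriuretic peptide (CNP, from *Nppc*) binds that of *Npr2*. Both receptors are guanylyl cyclases, which make cGMP when bound. The receptor of *Npr3* lacks the cyclase and takes the peptides up for breakdown, and corin cuts the ANP precursor to its active form. In the embryonic heart *Nppa* and *Nppb* mark the atria and the trabeculae of the ventricles, and *Npr3* is known from the endocardium. PDE2A, the enzyme missing in the knockout, breaks down cAMP and cGMP and is itself stimulated by cGMP.

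Each heart had 35865537 to 42835382 reads on the sense strand of genes. *Pde2a* itself (ENSMUSG00000110195) had between 0 and 2 counts per heart, in hearts of either genotype, so the labels could not be checked by it. Why *Pde2A*+/+ hearts had so few counts was not tested, so the counts do not show that the gene was silent there. A list of 16 cardiomyocyte genes had a mean log2 CPM of 9.33 to 9.80 in every heart, as the tissue label would have it. Genes of other tissues stood out in some hearts. The thymus gene *Rag1* had 1249 counts in *Pde2A*+/+ replicate 7 and at most 7 in any other heart. The epithelial gene *Epcam* had 591 and 610 counts in *Pde2A*+/+ replicates 7 and 11 and at most 60 elsewhere. Counts of the liver gene *Alb* were between 416 and 1942 in *Pde2A*+/+ replicates 11, H and E and *Pde2A*-/- replicate D, and at most 26 elsewhere. These were named after their values had been seen, and values without these hearts are given for the 7 genes, their ratios and the gene lists. Leaving out *Pde2A*+/+ replicates 7 and 11 left 5 *Pde2A*-/- against 4 *Pde2A*+/+ hearts, and leaving out all 5 of these hearts left 4 against 2.

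*Nppa* rose in the knockout hearts, and it was the only gene of the 7 to pass the test. *Nppb* differed by a larger fold but varied so widely between hearts that it lay at the threshold. *Npr3* and *Corin* were higher by smaller amounts and did not pass, and *Npr1* and *Npr2* lay within a few percent of the *Pde2A*+/+ level. *Nppc* was close to the limit of detection in both genotypes. In counts, 1 of the 7 genes was higher and 0 were lower at an adjusted p under 0.05 (quasi-likelihood test of edgeR, adjusted by Benjamini-Hochberg over all genes tested), where 8.93% of all genes tested were higher and 5.67% lower. With a fold change of at least 2 as well, 0 of the 7 passed, against 2.21% of all genes higher and 0.372% lower. At an unadjusted p under 0.05 there were 4 of the 7, against 30.5% of all genes. DESeq2 called 3 of the 7 higher and 0 lower, and its own share of all genes is not given here. The log2 fold change was above 0 in 5 of the 7, with a median of 0.26, where the median of all genes tested was -0.02. Without *Pde2A*+/+ replicates 7 and 11, 1 of the 7 was higher and 0 lower past the adjusted p, against 6.39% and 3.2% of all genes. Without all 5 hearts that held genes of other tissues, edgeR called 0 of the 7 higher and 0 lower, with 2 higher and 1 lower at an unadjusted p under 0.05, and 1.61% and 0.132% of all genes were called. In 0 of the 7 were the genotypes free of overlap, which held for 5.38% of all genes with *Pde2A*-/- above and for 3.11% with *Pde2A*-/- below.

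**Figure D1:**
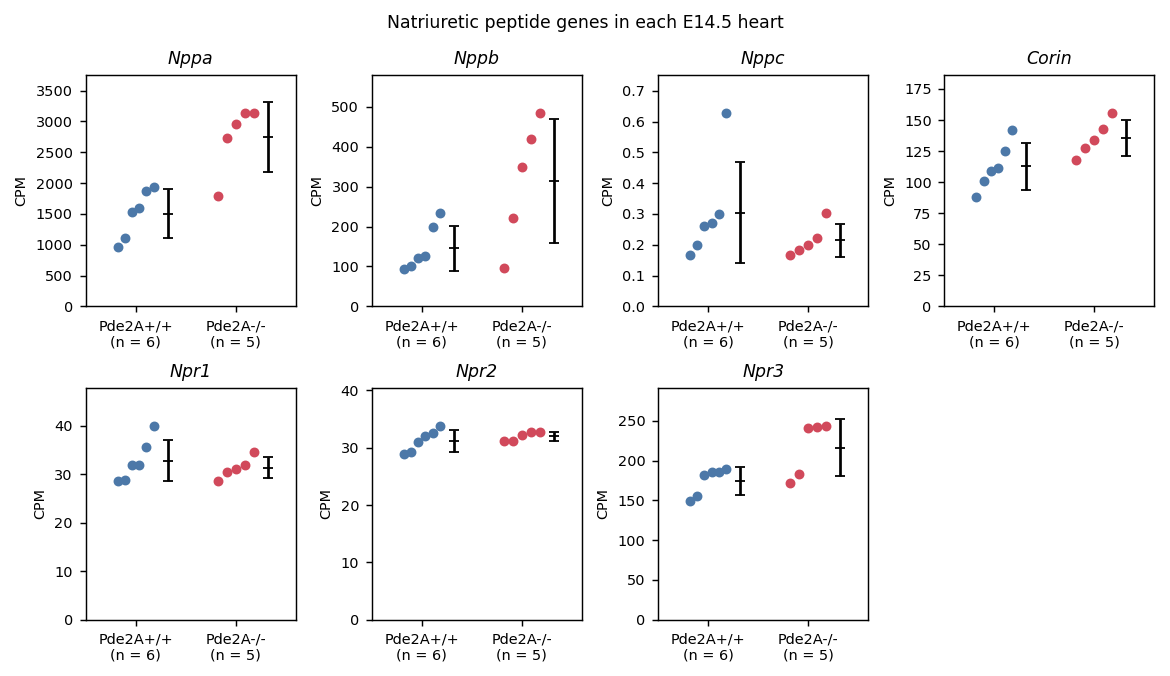
TMM-normalized count (CPM, scaled to a common library size) of the 7 genes in each heart, 1 point per heart on a linear axis from 0, sorted by value within each genotype; the bar beside the points is the mean with its SD (n = 6 and n = 5). For *Nppa* 4 of 5 *Pde2A*-/- hearts exceed the highest *Pde2A*+/+ heart, *Nppb* is spread from 96.2 to 484 CPM in *Pde2A*-/- hearts, and *Npr1* and *Npr2* lie side by side in both genotypes.

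*Nppa* (ENSMUSG00000041616) lies on the plus strand of chromosome 4 of GRCm38, from 148000722 to 148002079. *Nppb* (ENSMUSG00000029019) lies on the same strand from 147985788 to 147987205, so that its end is 13516 bases before the start of *Nppa*. Both are known targets of GATA factors in heart muscle. The stretches below are shown because they hold the GATA letters of the 2 promoters as RefSeq places them, TGATAA or AGATAA on either strand. These letters are in capitals, as is TATAAA, the letters of a TATA box, in the *Nppa* stretch. The TATAAA of *Nppb* lies beyond the end of its printed stretch. They are RefSeq sequence of GRCm38.p6, plus strand, and the *Nppa* stretch ends at the base before the start of transcription.
Nppa, chr4:148000572-148000721: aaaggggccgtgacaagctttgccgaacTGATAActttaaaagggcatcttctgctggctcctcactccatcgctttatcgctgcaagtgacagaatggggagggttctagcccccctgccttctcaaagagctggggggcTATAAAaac
Nppb, chr4:147985799-147985828: tgcagcTGATAAatcagAGATAAccccacc
The GATA letters begin 122 bases before the start in *Nppa* and 95 and 84 bases before the RefSeq start in *Nppb*, and TATAAA begins 9 and 31 bases before it. GENCODE, from which the gene positions above are taken, starts *Nppb* further upstream. By that start the printed *Nppb* stretch and the TATAAA of *Nppb* lie inside the gene and not before it. Over the same 150 bases before the start, 9.65% of 32851 RefSeq promoters hold the GATA letters on either strand and 4.84% hold TATAAA on the strand of the gene. The core letters of an NKX2-5 site, AAGTG on either strand, occur in the *Nppa* window, 65 bases before the start, and in 26.4% of all windows. CATTCC, the core of a TEAD site, occurs in the *Nppb* window on the minus strand, 105 bases before the start, and in 7.59% of all. Neither window holds TGACG, the core letters of a cAMP response element (13.3% of all), or ACGTG, those of a hypoxia response element (11.2%). These matches describe the letters alone, and all 7 genes had an entry in the promoter table.

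In the *Pde2A*-/- hearts *Nppa* had 1785 CPM in replicate A, 3134 in B, 3134 in 14, 2724 in D and 2951 in 15. In the 6 *Pde2A*+/+ hearts it ranged from 959 to 1942 CPM with a median of 1559. Replicate A was the only *Pde2A*-/- heart within the *Pde2A*+/+ range, and the other 4 hearts lay close together above it. The means were 2746 ± 563 CPM (SD, n = 5) and 1501 ± 396 CPM (SD, n = 6). This is a 1.83-fold rise, or 0.87 on the log2 scale (SE 0.19, 95% interval of the fold 1.38 to 2.42, adjusted p = 0.00999, edgeR's quasi-likelihood test). By mean CPM, *Nppa* ranked 48th among all genes in *Pde2A*+/+ hearts and 20th in *Pde2A*-/- hearts. In bulk tissue, more RNA per cell cannot be told apart from more cells that make it. Leaving out 1 heart at a time gave log2 fold changes from 0.774 to 0.997, and *Nppa* passed the test each time. Without the 5 hearts that held thymus, epithelial or liver genes, with 4 *Pde2A*-/- against 2 *Pde2A*+/+ hearts, it was 0.83 with an adjusted p of 0.132 (same edgeR test), so the call was lost there.

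*Nppb* had 96.2 CPM in *Pde2A*-/- replicate A, 220.5 in B, 419 in 14, 349 in D and 484 in 15. In *Pde2A*+/+ hearts it ranged from 94.6 to 233 CPM, with a median of 123. Replicates 14, D and 15 were above every *Pde2A*+/+ heart, B was within their range and A was near its lower end. The means were 314 ± 156 CPM (SD, n = 5) and 146 ± 56.5 CPM (SD, n = 6), 2.16-fold, with a log2 fold change of 1.11 (standard error 0.35, 95% interval of the fold 1.28 to 3.64). The adjusted p was 0.0501, just on the far side of the threshold. Under other settings it fell on either side: it was 0.0186 with DESeq2, 0.0047 without *Pde2A*-/- replicate A (log2 fold change 1.34) and 0.138 without *Pde2A*-/- replicate 15 (edgeR's quasi-likelihood test except where DESeq2 is named). Without the 5 hearts that held genes of other tissues, the log2 fold change was 0.52 with an adjusted p of 0.653 (same edgeR test). The *Pde2A*+/+ hearts left in that fit, replicates 6 and 8, had the highest *Nppb* of their genotype.

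The 2 peptide genes differed in their spread between hearts. The coefficient of variation of *Nppb* was 49.7% in *Pde2A*-/- and 38.8% in *Pde2A*+/+ hearts, and that of *Nppa* 20.5% and 26.4%, where the median gene at 10 CPM or more had 8.22% and 6.02%. From the lowest to the highest heart *Nppb* varied 5.03-fold within *Pde2A*-/- and 2.46-fold within *Pde2A*+/+. The ratio of *Nppb* to *Nppa* did not shift with genotype. Its mean on the log2 scale was -3.30 ± 0.68 (SD, n = 5) in *Pde2A*-/- and -3.40 ± 0.61 (SD, n = 6) in *Pde2A*+/+ hearts, a difference of 0.10 (exact permutation test over all splits of 5 against 6 hearts, two-sided, p = 0.788). That difference changed sign without *Pde2A*-/- replicate 14 or 15 or without *Pde2A*+/+ replicate 11, and ranged from -0.0915 to 0.33 with each heart left out.

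*Nppc* (ENSMUSG00000026241, chromosome 1, 86666291 to 86670571, minus strand) had 7 to 24 counts per heart. Its mean was 0.214 ± 0.054 CPM (SD, n = 5) in *Pde2A*-/- and 0.305 ± 0.165 CPM (SD, n = 6) in *Pde2A*+/+ hearts. The 95% interval of the fold was 0.421 to 1.18 (adjusted p = 0.361, edgeR's quasi-likelihood test). The interval spans both a fall and a rise, so no change in either direction was shown at such counts.

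*Corin* (ENSMUSG00000005220, chromosome 5, 72300025 to 72504473, minus strand) had 127, 142, 118, 155 and 134 CPM in *Pde2A*-/- replicates A, B, 14, D and 15. In *Pde2A*+/+ hearts it ranged from 87.9 to 142 CPM with a median of 110.4. The ranges overlapped widely, and 2 of 5 *Pde2A*-/- hearts were above all *Pde2A*+/+ hearts. The means were 135 ± 14.4 CPM (SD, n = 5) and 113 ± 18.8 CPM (SD, n = 6), or 0.26 on the log2 scale (SE 0.11; edgeR's quasi-likelihood test, adjusted p = 0.116). It passed under 2 other settings, at an adjusted p of 0.0401 without *Pde2A*+/+ replicate E and of 0.0479 with *Xist* as a covariate (same edgeR test).

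**Figure D2:**
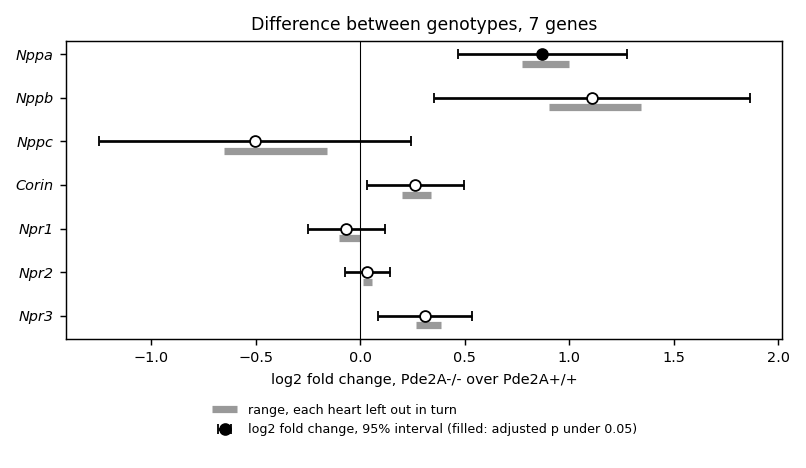
Log2 fold change of each of the 7 genes, *Pde2A*-/- over *Pde2A*+/+, from edgeR (points, filled where the adjusted p is under 0.05), with its 95% interval (black bars) and the range of the value when each of the 11 hearts is left out in turn (grey bars). *Nppa* is the filled point at 0.87, the interval of *Nppb* runs from 0.35 to 1.86, and those of *Npr1*, *Npr2* and *Nppc* include 0.

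Among the receptors, the cyclase genes *Npr1* and *Npr2* were level between the genotypes. *Npr1* (ENSMUSG00000027931, chromosome 3, 90450591 to 90465866, minus strand) had 34.7, 31.2, 30.4, 31.8 and 28.6 CPM in *Pde2A*-/- replicates A, B, 14, D and 15, and 28.7 to 39.9 CPM in *Pde2A*+/+ hearts. The interval of its fold was 0.842 to 1.08 (adjusted p = 0.660, edgeR's quasi-likelihood test). *Npr2* (ENSMUSG00000028469, chromosome 4, 43631935 to 43651244, plus strand) was the steadiest of the 7 genes. It had 32.7, 31.2, 31.2, 32.1 and 32.8 CPM in *Pde2A*-/- replicates in the same order and 28.9 to 33.7 CPM in *Pde2A*+/+ hearts, a coefficient of variation of 2.45% and 6.14%. The interval of its fold was 0.950 to 1.10 (adjusted p = 0.706, same edgeR test), the narrowest of the 7.

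*Npr3* (ENSMUSG00000022206, chromosome 15, 11839896 to 11907287, minus strand), the clearance receptor gene, had 242, 243, 184, 241 and 172 CPM in *Pde2A*-/- replicates A, B, 14, D and 15. In *Pde2A*+/+ hearts it ranged from 149 to 189 CPM with a median of 184. Replicates A, B and D were above every *Pde2A*+/+ heart, while 14 and 15, among the highest for *Nppb*, were within their range. The means were 216 ± 35.6 CPM (SD, n = 5) and 174 ± 17.6 CPM (SD, n = 6), a log2 fold change of 0.31 (standard error 0.10, 95% interval of the fold 1.06 to 1.45). The adjusted p was 0.0603 (edgeR's quasi-likelihood test). It was 0.0236 with DESeq2 and 0.0257 without *Pde2A*-/- replicate 15, and over all settings tried it ranged from 0.0236 to 0.541.

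The RNA ratio of clearance receptor to ANP receptor separated the genotypes, although neither gene passed the test alone. How many of all gene pairs do so was not computed. Of single genes, 5.38% had all *Pde2A*-/- hearts above all *Pde2A*+/+ hearts. The ratio of *Npr3* to *Npr1* in CPM was 6.99, 7.80, 6.03, 7.57 and 5.99 in *Pde2A*-/- replicates A, B, 14, D and 15. In *Pde2A*+/+ hearts it was 5.19 in replicate 7, 5.23 in 11, 5.92 in 6, 5.69 in 8, 5.38 in H and 4.65 in E. All 5 *Pde2A*-/- hearts were above all 6 *Pde2A*+/+ hearts, by a narrow margin between *Pde2A*-/- replicate 15 and *Pde2A*+/+ replicate 6. On the log2 scale the means were 2.77 ± 0.18 (SD, n = 5) and 2.41 ± 0.12 (SD, n = 6), a difference of 0.36 (two-sided exact permutation test over all splits of the hearts, p = 0.0022, the smallest it can give, and 0.0065 adjusted over 3 ratios). The difference stayed between 0.31 and 0.41 in 13 other settings, among them each heart left out in turn, and passed in each. It was 0.34 without *Pde2A*+/+ replicates 7 and 11 (adjusted p = 0.0952, same exact permutation test). It was 0.20, with an adjusted p of 0.4 by that exact test, without all 5 hearts that held genes of other tissues, which left the *Pde2A*+/+ hearts with the highest ratios, replicates 6 and 8. The ratio of *Npr2* to *Npr1* differed by 0.09 on the log2 scale (adjusted p = 0.354, same exact permutation test).

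**Figure D3:**
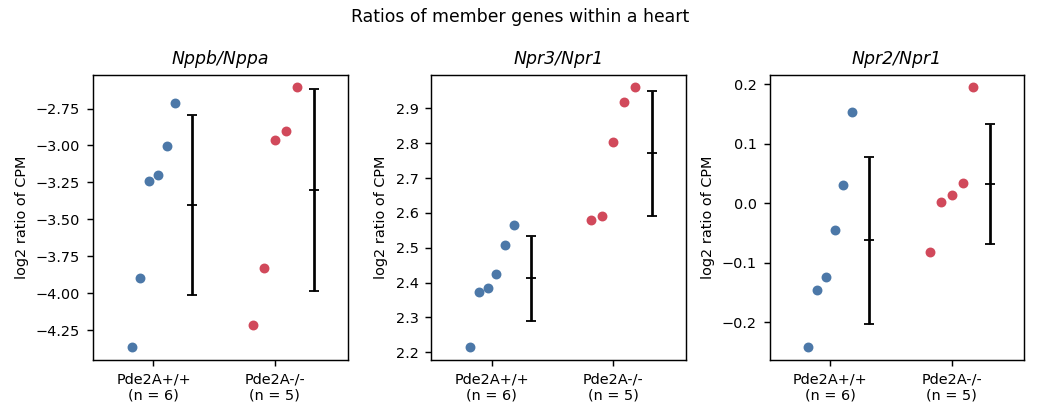
Ratio of 2 genes within each heart, as the difference of log2 CPM, 1 point per heart sorted by value within each genotype, with the mean and SD beside the points (n = 6 and n = 5). The *Npr3* to *Npr1* ratio has no overlap between *Pde2A*+/+ and *Pde2A*-/- hearts, whereas the *Nppb* to *Nppa* and *Npr2* to *Npr1* ratios overlap.

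Markers of the endocardium were higher in the knockout hearts. Of 5 endocardial genes, 4 were higher and 0 lower past the adjusted p, where 8.93% of all genes tested were higher and 5.67% lower. Their median log2 fold change was 0.50. Their largest changes were those of *Tmem100*, at 15.4 ± 2.48 against 8.51 ± 1.34 CPM (SD, n = 5 and n = 6), and of *Vwf*, the clotting protein von Willebrand factor, at 135 ± 29.9 against 77.4 ± 13.4 CPM. Summed, the 5 genes gave 338.8 to 435.2 CPM in *Pde2A*-/- and 245 to 315 CPM in *Pde2A*+/+ hearts, without overlap, and 0 of the 5 were at 0 counts in every heart. Within the *Pde2A*-/- hearts they did not go with *Npr3* heart by heart. Replicates 14 and 15, with sums of 382.6 and 398.9 CPM, were above every *Pde2A*+/+ heart for the markers. For *Npr3* both were within the *Pde2A*+/+ range. Past the adjusted p were 3 of the 5 without *Pde2A*+/+ replicates 7 and 11, against 6.39% of all genes higher. Without all 5 hearts that held genes of other tissues there was 1, *Tmem100*, against 1.61% of all genes higher. Set against the mean log2 CPM of these genes in the same heart, *Npr3* was at 1.79 ± 0.24 (SD, n = 5) in *Pde2A*-/- and at 2.01 ± 0.05 (SD, n = 6) in *Pde2A*+/+ hearts, so it was not higher relative to them. Among *Pde2A*+/+ hearts *Npr3* kept close to the markers, with this difference between 1.922 and 2.055, against 1.515 to 2.123 in *Pde2A*-/- hearts. The comparison with the endocardial mean was chosen with the values in view and carries no test.

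Levels of different genes were compared per kilobase of exon, as RPKM, in *Pde2A*+/+ hearts. *Nppa* led with 1735 ± 458 RPKM, followed by *Nppb* with 186 ± 72.3, *Corin* with 20.9 ± 3.48, *Npr3* with 18.6 ± 1.88, *Npr1* with 6.86 ± 0.90, *Npr2* with 6.70 ± 0.41 and *Nppc* with 0.292 ± 0.159 (SD, n = 6). Neighbours in this order differed in 6 of 6 hearts for *Nppa* over *Nppb*, *Nppb* over *Corin*, *Npr3* over *Npr1* and *Npr2* over *Nppc* (exact sign-flip permutation test, two-sided, adjusted p = 0.0469 for each, from 0.031, the smallest p that 64 flips can give). *Corin* and *Npr3* did not differ beyond their spread (adjusted p = 0.15, same exact test), nor did *Npr1* and *Npr2* (adjusted p = 0.594, same exact test), and the order of both pairs turned when the longest transcript was used as the length. In *Pde2A*-/- hearts *Nppa* was at 3174 ± 651 and *Nppb* at 402 ± 199.8 RPKM, *Npr1* at 6.55 ± 0.46 and *Npr2* at 6.86 ± 0.17, and *Nppc* at 0.206 ± 0.052 (SD, n = 5).

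Cardiomyocyte genes fell in part, with 0 of 16 higher and 6 lower past the adjusted p and a median log2 fold change of -0.17, among them *Ttn* and *Tcap* of the sarcomere at -0.51 and -0.88. Each of the 7 genes was therefore also set against the mean log2 CPM of this list and of 14 endothelial genes. Of the endothelial genes 3 were higher and 2 lower with a median of 0.15, where 8.93% of all genes tested were higher and 5.67% lower. Relative to the cardiomyocyte genes, *Nppa* was higher by 1.09, *Npr3* by 0.50, *Corin* by 0.48 and *Npr2* by 0.24 on the log2 scale (exact permutation test, two-sided, adjusted p = 0.0364 for each over 14 tests). *Nppb* was higher by 1.19 without passing (adjusted p = 0.0859, same exact test). Because the cardiomyocyte list fell, a level gene also comes out higher against it, as did *Npr2*, whose own log2 fold change was 0.03. How many of all genes would pass against that list was not computed. Relative to the endothelial genes only *Nppa* passed, by 0.83 (adjusted p = 0.0364, same exact test), and *Npr2* was at -0.02. These 5 passes became 0 when the median of each list was used in place of its mean, and 0 to 7 with each heart left out. They were also 0 without *Pde2A*+/+ replicates 7 and 11 and without all 5 hearts that held genes of other tissues.

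Genes around the peptide pair were read in the same fit, 11 tested genes within 100 kb including the pair. *Plod1*, a collagen lysyl hydroxylase gene, rose by 0.60 on the log2 scale (adjusted p = 0.00601) and *Agtrap*, which encodes a protein bound to the angiotensin receptor, by 0.40 (adjusted p = 0.00224, edgeR's quasi-likelihood test for both genes). *Clcn6*, a chloride transporter gene beyond the end of *Nppa*, was at 0.42 without passing (adjusted p = 0.0668, same edgeR test). *Mfn2*, of mitochondrial fusion, at -0.03 and *2510039O18Rik* at -0.02 were level. *Draxin* and *Chchd2-ps* had less than 1 CPM and did not pass. The interval thus held both genes that rose and genes that were level.

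**Figure D4:**
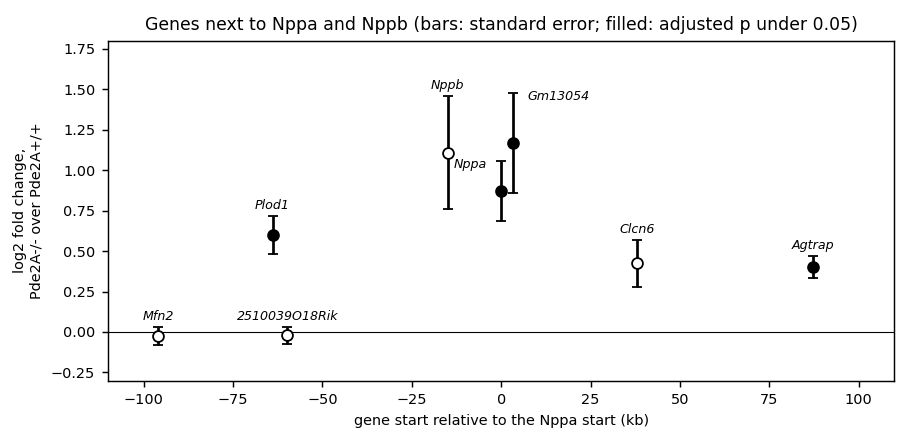
Log2 fold change (*Pde2A*-/- over *Pde2A*+/+, edgeR, bars for the standard error) of the genes named here at 1 CPM or more within 100 kb of *Nppa* or *Nppb*, against the distance of their start from that of *Nppa* in kb; filled points passed the adjusted p. *Nppb* and *Gm13054* stand at 1.11 and 1.17, *Nppa* at 0.87, *Plod1* at 0.60, and *Mfn2* and *2510039O18Rik* at about 0.

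*Gm13054* (ENSMUSG00000086806) is annotated on the minus strand between 148001091 and 148004014. It overlaps 532 of the 865 exon bases of *Nppa*, or 61.5%. The overlap matters for how *Nppa* was counted. When strand was ignored, reads in the overlap belonged to both genes and were dropped, so that only 12.9% to 16.2% of the *Nppa* reads were left. The log2 fold change of *Nppa* on those reads was 0.86, against 0.87 by strand. *Gm13054* itself rose from 5.34 ± 1.41 (SD, n = 6) to 12.0 ± 6.83 CPM (SD, n = 5), or 1.17 on the log2 scale (SE 0.31; edgeR's quasi-likelihood test, adjusted p = 0.0251). Its counts were 0.227% to 0.719% of those of *Nppa* in the same heart. Over the 11 hearts this share followed the share of *Nppb* reads that fell on the wrong strand, 0.324% to 1.28%, where no such transcript is annotated. Pearson's r was 0.926 (permutation test, p = 2e-05, adjusted over 2 measures 4e-05), Spearman's rho was 0.918 (permutation test, p = 0.00018), and r was 0.919 without the 2 hearts farthest from the median. Transcription of *Gm13054* can thus not be told apart from *Nppa* reads on the opposite strand.

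Other genes of the pathway were read from lists, where 8.93% of all genes tested were higher and 5.67% lower past the adjusted p. Of 5 tested genes of peptide processing and clearance, 0 passed in either direction, with a median log2 fold change of 0.15: *Furin*, a protease that cuts the BNP precursor, was at 0.15 and *Mme*, the peptide-degrading neprilysin, at 0.35. Of 9 other guanylyl cyclases 0 passed, with a median of 0.12, and *Gucy1a1* and *Gucy1b1*, the subunits of the nitric oxide receptor, were at 0.12 and 0.04. Of 15 effectors of cGMP and phosphodiesterases, 4 were higher and 0 lower past the adjusted p, with a median of 0.21. These were *Pde10a*, a phosphodiesterase of both cyclic nucleotides, by 0.70 on the log2 scale (4.11 ± 0.79 to 6.68 ± 1.15 CPM), *Rgs2*, an inhibitor of G protein signalling, by 0.43, *Pde1a*, a calcium-dependent phosphodiesterase, by 0.31, and *Pde3a*, a cGMP-inhibited phosphodiesterase, by 0.31. They include 3 of the 9 phosphodiesterases tested in the list. The kinase gene *Prkg1* was at 0.14 (adjusted p = 0.215, edgeR's quasi-likelihood test) and *Pde5a*, which is specific for cGMP, at -0.21 (adjusted p = 0.493, same edgeR test). Of 6 genes of secretory granules, 1 was higher and 0 lower with a median of 0.06, namely *Scg2*, from 0.280 ± 0.123 to 0.816 ± 0.286 CPM. Without *Pde2A*+/+ replicates 7 and 11, 3 of the 15 effectors and phosphodiesterases passed, against 6.39% of all genes higher. Of the 4 named, the exception was *Pde3a* (0.26, adjusted p = 0.0993, same edgeR test). Without all 5 hearts that held genes of other tissues, edgeR called 0 of the 15, with 6 higher at an unadjusted p under 0.05, and *Pde10a* was then at 0.64 with an adjusted p of 0.266.

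Transcription factors known at the *Nppa* and *Nppb* locus did not move together. Of 19 tested, 1 was higher and 2 were lower past the adjusted p, with a median log2 fold change of -0.06. Over all genes tested 8.93% were higher and 5.67% lower, and the counts of this list were not tested against these shares. *Tbx2*, a repressor of *Nppa*, fell by 0.56 on the log2 scale, from 17.3 ± 2.74 (SD, n = 6) to 11.7 ± 1.71 CPM (SD, n = 5) (adjusted p = 0.0104, edgeR's quasi-likelihood test). *Nkx2-5*, an activator, fell by 0.27 (adjusted p = 0.0103) and *Irx5* rose by 0.45 (adjusted p = 0.0361, same edgeR test). *Gata4* was at -0.04 and *Tbx5* at 0.25, neither past the adjusted p. *Irx5* no longer passed without *Pde2A*+/+ replicates 7 and 11 (adjusted p = 0.0886, same edgeR test). Without all 5 hearts that held genes of other tissues, only *Nkx2-5* did, at -0.40 (adjusted p = 0.0283, same edgeR test).

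Markers of heart regions were read as lists, where 8.93% of all genes tested were higher and 5.67% lower past the adjusted p. In bulk hearts they do not show in which chamber the peptide genes were expressed. *Bmp10*, a growth factor of the trabeculae, rose by 1.88 on the log2 scale (SE 0.26; edgeR's quasi-likelihood test, adjusted p = 5.32e-04). It had 219, 240, 495, 516 and 506 CPM in *Pde2A*-/- replicates A, B, 14, D and 15 and 70.1 to 164 CPM in *Pde2A*+/+ hearts, so the genotypes did not overlap. Without all 5 hearts that held genes of other tissues it was at 1.89 with an adjusted p of 0.0600 (same edgeR test), and *Xirp1*, *Dkk3* and *Nr2f1*, described next, did not pass either. *Bmp10* was the only 1 of 6 trabecular genes past the adjusted p, and their median was -0.04. Of 10 atrial genes 1 was higher, *Dkk3*, and 2 were lower, *Nr2f1* and *Myl4*, with a median of -0.003. Of 8 ventricular genes 0 passed, with a median of -0.24. Among 7 genes of wall stress and hypertrophy, which often accompany natriuretic peptides in the adult heart, 0 were higher and 1 was lower past the adjusted p, *Xirp1*, by 0.37 on the log2 scale, with a median of -0.15. *Acta1* was at -0.15 and *Ankrd1* at 0.20 in that list.

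Hypoxia genes rose widely. Of 16 tested, 15 were higher and 0 lower past the adjusted p, where 8.93% of all genes tested were higher and 5.67% lower. Their median log2 fold change was 1.13, and the largest were those of *Ndrg1* (2.31), *Egln3* (1.98), *Adm* (1.59) and *Vegfa* (1.39). *Adm* encodes adrenomedullin, another peptide hormone of heart and vessels, and had 6.91 ± 2.04 (SD, n = 6) and 20.9 ± 12.2 CPM (SD, n = 5). The mean log2 CPM of the list was 6.52 in *Pde2A*-/- replicate A, 6.89 in B, 7.55 in 14, 7.75 in D and 8.05 in 15, and 6.26 to 6.55 in *Pde2A*+/+ hearts. Replicate A, the *Pde2A*-/- heart with the lowest hypoxia mean, had the lowest *Nppa*, *Nppb* and *Bmp10* of its genotype, and replicate 15, with the highest mean, had the highest *Nppb*. In *Nppa* the order was not graded: B had as much as 14. Replicate A was not low for hypoxia genes alone. Its sums of macrophage (233.4 CPM), erythroid (585.4), endocardial (338.8) and epicardial genes (320.3) were also the lowest of its genotype, whereas those of endothelial and fibroblast genes were not. Without *Pde2A*+/+ replicates 7 and 11, 10 of the 16 hypoxia genes passed, against 6.39% of all genes higher. Without all 5 hearts that held genes of other tissues edgeR called 0, against 1.61% of all genes higher. At an unadjusted p under 0.05 of that fit 10 were higher, and the median was 0.97. The part of these genes in the values of *Nppa* and *Nppb* was not tested.

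**Figure D5:**
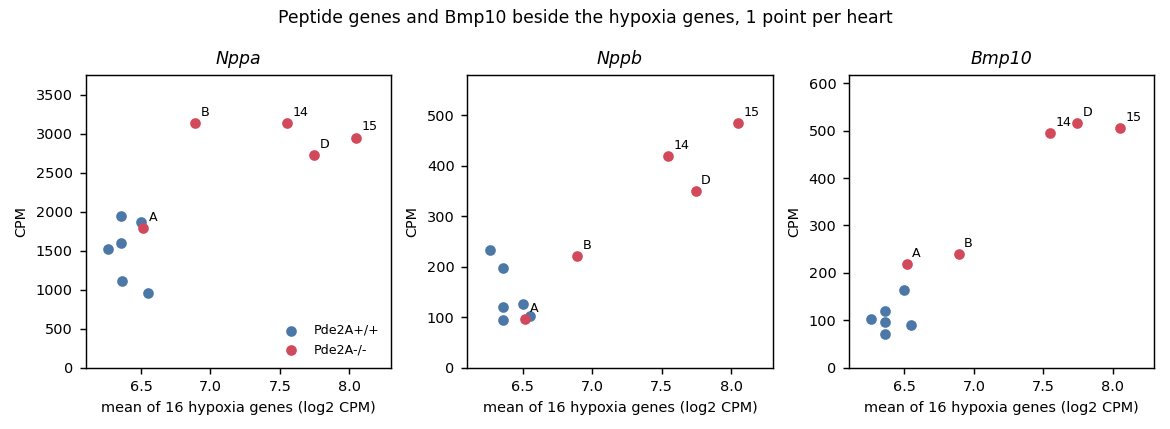
CPM of *Nppa*, *Nppb* and *Bmp10* in each heart against the mean log2 CPM of 16 hypoxia genes in that heart, 1 point per heart, with the *Pde2A*-/- hearts marked by replicate name. *Pde2A*+/+ hearts lie between 6.26 and 6.55 on the horizontal axis, and *Pde2A*-/- replicate A at 6.52 is beside them in *Nppa* and *Nppb*.

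Markers of other cells also differed in level, where 8.93% of all genes tested were higher and 5.67% lower past the adjusted p. Macrophage genes were higher in 9 of 10 and lower in 0, with summed levels of 233.4 to 298.4 against 113.6 to 178.2 CPM, and erythroid genes were higher in 8 of 9 and lower in 0, with 585.4 to 1149 against 153.9 to 562.4 CPM. Without all 5 hearts that held genes of other tissues, 6 of 10 and 8 of 9 passed, against 1.61% of all genes higher. Of 9 fibroblast genes 4 were higher and 0 lower, of 7 epicardial genes 0 and 1, and of 9 smooth muscle genes 0 and 2. In these lists 0 genes were at 0 counts in every heart. The lists for liver (6 tested), lung epithelium (3 tested), thymus (5 tested) and skeletal muscle (5 tested) had 0 genes past the adjusted p. The part of these cells in the values of the 7 genes was not tested.

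The genes most like each member in their variation between hearts were sought among 10053 genes at 10 CPM or more, by Pearson's r of log2 CPM centred on the genotype means over the 11 hearts. These are descriptions, over hearts that share depth and tissue content, and carry no test. The top 3 of so many genes are high in part because they were picked for it. *Nppa* was most like *Nucb1* (r = 0.927), *Tmed3* (0.882) and *Aldh18a1* (0.878). *Nppb* was most like *Bex1* (0.970), *Smpd1* (0.953) and *Ccn2* (0.944), and its own r with *Nppa* was 0.497. *Npr1* was closest to *Nacc2* (0.868), *Med25* (0.863) and *Rin3* (0.832), *Npr2* to *Stim1* (0.978), *Apc* (0.924) and *Cav2* (0.924), *Npr3* to *Csgalnact1* (0.965), *Adgrg6* (0.922) and *Tshz1* (0.897), and *Corin* to *B4galt3* (0.897), *Plekhh3* (0.883) and *Prob1* (0.873). Within the 7 genes, *Corin* went most with *Npr2* (0.757) and *Npr1* (0.696). The values of *Nppb* with the 3 receptors were small and negative (-0.37 with *Npr1*, -0.32 with *Npr2* and -0.37 with *Npr3*). Over 11 hearts, values of that size were not shown to differ from 0.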

How the data were processed

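RNA of 11 embryonic hearts had been sequenced as single-end reads of stranded mRNA libraries. STAR was run by the authors on GRCm38 (version and annotation release not given in the sources used here), and the deposited values are whole-number read counts per gene, not normalized. Counts of the gene's strand were used here. Between 19.6% and 22.4% of reads lay on no single gene and were left out of library sizes. Names came from GENCODE M21 (55141 of 55487 identifiers matched).

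Genes with a sum of 10 counts or more were normalized by TMM and compared by the quasi-likelihood test of edgeR 4.0.16 in R 4.3.3, without covariates, with Benjamini-Hochberg adjustment. CPM are TMM-normalized, log2 CPM use a prior count of 2, and RPKM use the union of exons. Ratios and levels were tested by exact permutation over hearts. On simulated data for this comparison (23682 genes), the test recovered 197 of 200 genes given a log2 change of 2, with 8 wrong calls. The common biological coefficient of variation was 16.8%, and p-values measure the spread between hearts, whose litters are not stated.

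The 7 genes and all lists, written from general knowledge, were chosen with earlier results of these data known. Named were the members, *Pde2a*, the up to 4 largest passing changes per list (2 for cell markers), tested neighbours within 100 kb (1 of which is not reported here), and the 3 genes most like each member with at least 1 CPM. *Furin*, *Mme*, *Gucy1a1*, *Gucy1b1*, *Prkg1*, *Pde5a*, *Gata4*, *Tbx5*, *Acta1*, *Ankrd1*, *Myl4* and the genes of other tissues were named after their values were seen. Alternatives were DESeq2 1.42.0, its size factors, other count filters, reads of both strands, globin and mitochondrial genes left out, the naming style of replicates or *Xist* as a covariate, other prior counts, lengths or list centres, and each heart left out. Fits without the hearts holding genes of other tissues were added after seeing the data. Statistics used scipy 1.17.1, and figures matplotlib 3.10.9.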

Additional observations from a re-analysis of the deposited data

Results flagged for a closer look

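Of 20 groups of hearts in which the extreme heart of each gene or ratio was tested against the rest, 1 stood out, where chance gives about 1 in 20. *Nppc* had 0.627 CPM in *Pde2A*+/+ replicate 8 and 0.168 to 0.301 CPM in the other 5 *Pde2A*+/+ hearts. The value rests on 24 counts.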

How the results depend on the processing

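*Nppa* passed in 20 of 21 alternatives, with a log2 fold change of 0.774 to 0.997, *Nppb* in 9, *Npr3* in 3, *Corin* in 2, and *Nppc*, *Npr1* and *Npr2* in 0. The count of members higher, 1, became 3 with DESeq2 and with filterByExpr, 2 without a count filter, with reads of both strands, with globin and mitochondrial genes left out, or with the naming style or *Xist* as a covariate, 0 with a fold change of at least 2, and 0 without the 5 hearts holding genes of other tissues; it was 1 to 2 with each heart left out. The count lower was 0 throughout. Shares of all genes were given only for the main test and for the fits without hearts holding genes of other tissues. Over the pathway lists 21 genes were higher and 3 lower: 27 and 6 with DESeq2, 14 and 3 without *Pde2A*+/+ replicates 7 and 11, 0 and 1 without the 5 hearts (17 and 7 at an unadjusted p under 0.05), and 15 to 22 and 3 to 6 with each heart left out. Without those replicates and without the 5 hearts, *Npr3* to *Npr1* was 0.34 and 0.20 and no longer passed, *Nppb* to *Nppa* was -0.0889 and -0.53, and *Npr2* relative to endothelial genes 0.029 and 0.036. Without the 5 hearts, the exact test on 4 against 2 hearts could not reach the threshold, whatever the values. Members passing relative to cardiomyocyte or endothelial genes numbered 5, 0 with the median of the list or without either set of hearts, and 0 to 7 with each heart left out. Without the 5 hearts this count could only be 0, by the same limit of the exact test. Ordered pairs passing in *Pde2A*+/+ hearts numbered 4, 0 with reads of both strands and 0 with each heart left out, where 5 hearts cannot reach the threshold. The sign turned for *Nppb* to *Nppa* (range -0.0915 to 0.33), *Npr2* relative to endothelial genes (-0.037 to 0.013) and *Nppc* relative to cardiomyocyte genes (-0.26 to 0.10) with a heart left out, for *Corin* over *Npr3* by the longest transcript (-0.14), and for *Npr1* over *Npr2* by the longest transcript (-0.0894), with both strands (-0.14) and without *Pde2A*+/+ replicate E (-0.0089, the lowest of a range up to 0.070). Reads of both strands keep few *Nppa* reads; other causes were not tested. No paired analysis was possible because the genotypes share no replicate name. Arms of few hearts and the 7 to 24 counts of *Nppc* limit what could be detected.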
